A study of Mus musculus with 7 samples.

Results

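The genes described here encode proteins of blood clotting, of clot dissolution by plasmin, and thrombospondin 1. They are Thbs1, F3, F7, F10, F13a1, Plau, Plaur, Serpinb2 and Procr, chosen by gene symbol, and all 9 were found among the 16047 genes of the table. Of these, 8 had a mean of at least 1 RPKM (mapped reads scaled to the depth of the library and to transcript length) over the 7 libraries and were tested together with 9594 genes in all. Serpinb2 lay below that limit and is given by its values.

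Neutrophils were sorted from livers of C57BL/6 mice 24 h into AILI, the liver injury that an overdose of acetaminophen causes, and each library was made from 50000 cells of a single liver. The study's methods used young adult male mice. All 7 mice received acetaminophen. Mice of the MC-21 group (n = 3, numbered 2 to 4) were given intraperitoneal injections of 400 µL conditioned medium holding MC-21, an antibody against the chemokine receptor CCR2, at 29 µg/mL, from 12 h before acetaminophen and every 24 h until sacrifice, which leaves the liver deficient in infiltrating Ly6Chi monocytes. The PBS group (n = 4, numbered 5 to 8) was given phosphate-buffered saline. The study's methods state the schedule for MC-21 alone, and that of PBS is taken to be the same. Because the control injections held no conditioned medium, effects of the medium, of the antibody and of the missing monocytes cannot be told apart. Sorted cells were CD11b+ Ly6Clo CX3CR1-GFP- Ly6G+. The strain label names no reporter, although the gate reads a CX3CR1-GFP one. There was no uninjured group, so the comparison asks how neutrophils of injured livers differed with and without monocytes, and not what the injury did.

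The 12 genes of a neutrophil list summed to between 18084 and 40850 RPKM per library, led by S100a9 at 12275 to 25041 RPKM. Levels differed widely within the list: Csf3r had 270 to 328 RPKM, Ly6g 16.3 to 69.0 RPKM and Ltf 1.06 to 10.2 RPKM. Transcripts of other liver cells were present too. Of the platelet markers, Treml1 and Gp6 were listed at 0 in all MC-21 libraries. The monocyte marker Vcan reached no more than 0.0739 RPKM in any library, and the stellate cell marker Reln was listed at 0 in all 7. Other genes of the monocyte list were present, with Cd14 at a mean of 898 RPKM and Csf1r at 53.0 RPKM. The eosinophil markers Epx, Prg2 and Il5ra, and the pathway genes F13b and Serpina5, were not analysed here. No library stood apart by correlation: the mean correlation of each with the other 6 lay between 0.951 and 0.961, calculated across genes, which are not independent replicates. Correlation does not show shifts in level. The library medians of log2(RPKM + 1) over tested genes were 3.13 to 3.23 in PBS and 2.89 to 3.07 in MC-21, lowest in MC-21 4.

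As background, clotting starts when tissue factor, encoded by F3, meets factor VII in the blood. The pair activates factor X, which turns prothrombin into thrombin, and thrombin turns fibrinogen into fibrin and activates factor XIII, which cross-links the fibrin mesh. The liver makes most of the soluble factors. Plasmin dissolves the mesh after urokinase, bound to its receptor on the cell surface, has cut plasminogen. Thrombospondin 1 is an adhesive matrix protein, abundant in platelet granules, that binds cells through receptors such as CD47 and CD36. In the liver, clotting is activated during acetaminophen injury, and fibrin is deposited in the damaged areas.

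The stretches before the start sites of F13a1, F10 and Procr are shown because these were the members that differed at least 2-fold with an unadjusted p under 0.05. RefSeq's promoter table held 7 of the 9 members, and the stretches were placed by exact match on mm9, the build of the libraries. That of F13a1 was at chr13:37142114-37142363 on the minus strand, that of F10 at chr8:13037058-13037307 on the plus strand, and that of Procr at chr2:155576703-155576852 on the plus strand. The Procr stretch is 150 bases, since the 100 bases nearest to the RefSeq start lie in an annotated exon in mm9, and the others are 250 bases each. None overlaps an annotated exon. Capitals mark the motifs found.

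F13a1: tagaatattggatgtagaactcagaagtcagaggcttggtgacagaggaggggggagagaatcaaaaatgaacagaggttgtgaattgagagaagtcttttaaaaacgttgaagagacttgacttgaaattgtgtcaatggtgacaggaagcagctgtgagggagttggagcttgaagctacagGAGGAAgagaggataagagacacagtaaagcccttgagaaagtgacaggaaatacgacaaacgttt
F10: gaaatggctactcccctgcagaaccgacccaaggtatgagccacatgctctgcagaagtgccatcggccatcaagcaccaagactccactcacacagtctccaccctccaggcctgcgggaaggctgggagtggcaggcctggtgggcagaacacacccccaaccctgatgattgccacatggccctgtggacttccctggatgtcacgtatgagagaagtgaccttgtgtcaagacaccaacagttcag
Procr: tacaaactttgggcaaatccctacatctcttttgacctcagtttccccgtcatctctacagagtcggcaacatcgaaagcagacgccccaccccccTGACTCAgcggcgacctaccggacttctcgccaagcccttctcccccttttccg

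The motifs searched on both strands were the binding site of TBP, which is TATAAA, the Sp1 site GGGCGG, the core of the PU.1 site, which is GAGGAA, and the AP-1 site TGANTCA. F13a1 held GAGGAA, which is also in 23.3% of the 32851 mouse promoters of the table over the same 250 bases. Procr held TGANTCA, which is in 4.00% of them over the same 150 bases. F10 held none of these letters in its window, where TATAAA was found in 12.4%, GGGCGG in 32.7% and TGANTCA in 6.75% of all promoters.

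The levels of the members spanned a wide range. Plaur was the most abundant with a mean of 292 RPKM over the 7 libraries, place 276 among all genes. F10 followed with 33.3 RPKM, then Procr with 21.8, Thbs1 with 8.46, Plau with 5.66, F7 with 4.36, F3 with 3.34, F13a1 with 1.96 and Serpinb2 with 0.218 RPKM. Only the first and the last step of this order, Plaur above F10 and F13a1 above Serpinb2, held in all 7 libraries. The steps between the remaining neighbours held in 4 to 6 of 7 libraries, so the order of these neighbours is not settled by these data. RPKM divides by the whole transcript, while these libraries read the 3′ end of transcripts, so levels of genes with long transcripts such as Thbs1 are understated against those with short ones.

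**Figure D1:**
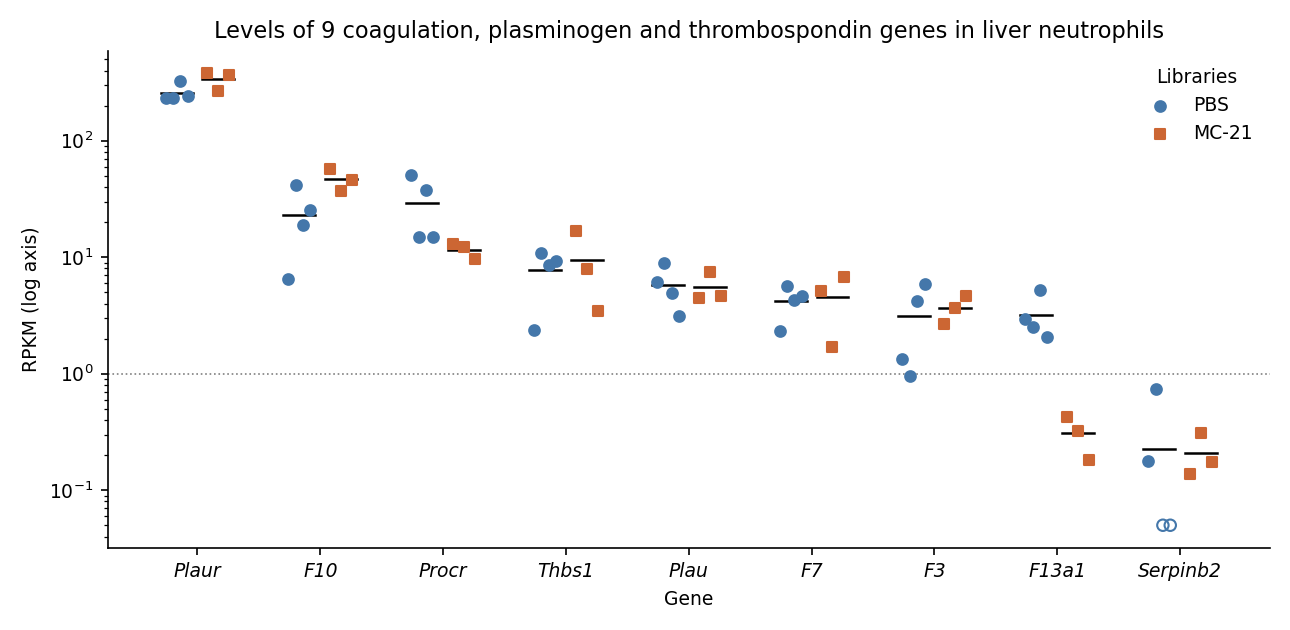
RPKM on a log axis of the 9 members, ordered by mean, in each of the 4 PBS libraries (blue circles) and 3 MC-21 libraries (orange squares), with black bars for group means, a dotted line at 1 RPKM, and open symbols at the bottom for values of 0. The groups separate for F13a1, from 2.06 RPKM upward in PBS against at most 0.428 in MC-21, and for Procr, and they overlap for the other 7 genes.

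Across all tested genes, limma on log2(RPKM + 1) with Benjamini-Hochberg adjustment called 60 of 9594 genes (0.625%) at an adjusted p under 0.05, 41 lower and 19 higher in MC-21 neutrophils. Of the 8 members tested, 1 passed, F13a1, which was lower. With the cutoffs of the study's methods, an unadjusted p under 0.05 and at least 2-fold, 259 genes (2.7%) passed, and among the members 3 did: F13a1 and Procr were lower and F10 was higher. The groups did not overlap for 1280 genes (13.3%) and for 2 of 8 members, F13a1 and Procr. The median difference, MC-21 minus PBS, was 0.08 on the log2 scale for the 8 members and -0.15 for all tested genes, of which 69.4% were lower in MC-21. After median-centring of the libraries, 2 of 8 members were lower in place of 4. Of all tested genes, 4539 of 9594 were then lower, with a median of 0.02. The labels do not say more of the samples than 1 liver each, so p-values measure the spread between these mice.

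**Figure D2:**
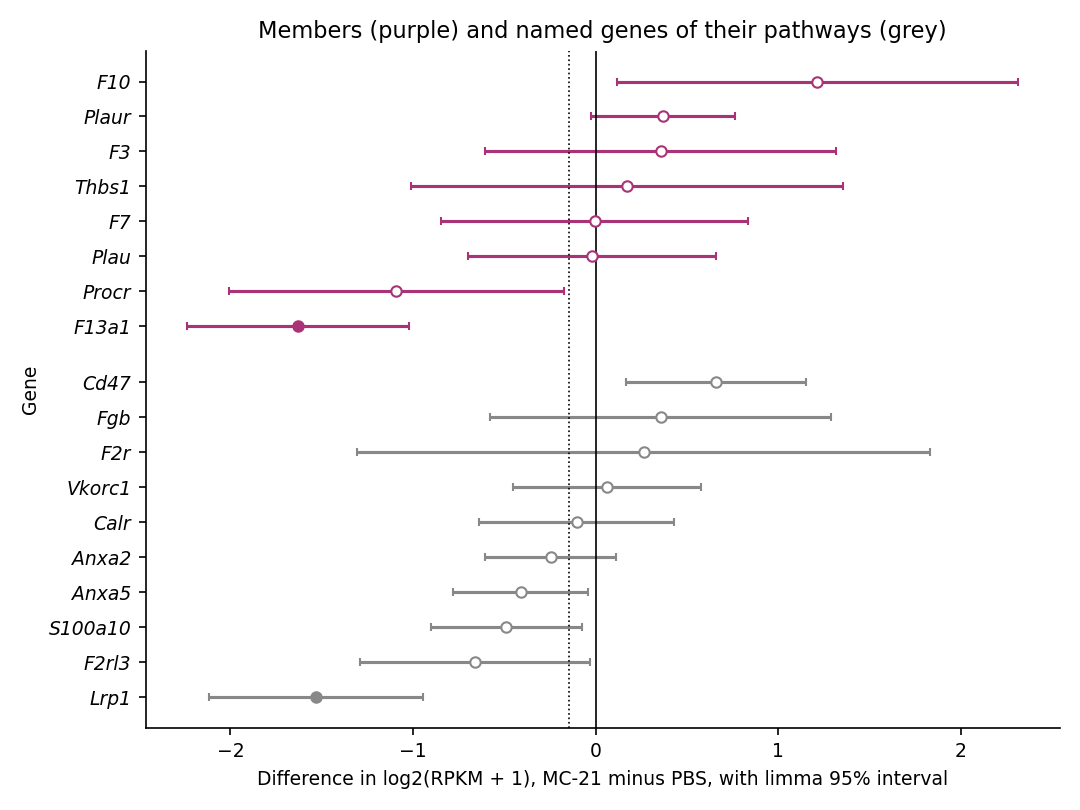
Difference in log2(RPKM + 1), MC-21 minus PBS, with limma's 95% interval for the 8 tested members (purple) and the 10 named genes of their pathways (grey). Filled points have an adjusted p under 0.05, the solid line marks no difference and the dotted line the median of all tested genes, -0.15. F13a1 at -1.63 and Lrp1 at -1.53 are the filled points, and most other intervals span 0 or end near it.

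F13a1 encodes the catalytic A subunit of factor XIII, the transglutaminase that cross-links fibrin. It lies at chr13:36959047-37142113 on the minus strand (ENSMUSG00000039109.8). PBS libraries 5 to 8 had 2.95, 2.52, 5.27 and 2.06 RPKM, and MC-21 libraries 2 to 4 had 0.428, 0.320 and 0.183 RPKM. Every PBS value was thus above every MC-21 value, with PBS 7 highest. Means were 3.20 ± 1.43 RPKM in PBS (SD, n = 4) and 0.310 ± 0.123 RPKM in MC-21 (SD, n = 3), a ratio of 10.3 between the means. On the log2(RPKM + 1) scale, which understates changes of low genes, the difference was -1.63 (SE 0.27, 95% interval -2.24 to -1.02), with an adjusted p of 0.0378 by limma. With a pseudocount of 0.1 in place of 1 it was -2.96. The exact two-sided permutation p was 0.0286, the smallest that 35 groupings of 7 libraries can give.

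These values rest on few reads. From the steps between low values, F13a1 was estimated to have 32, 33, 54 and 32 reads in the PBS libraries and 6, 2 and 2 in the MC-21 libraries, or 150 against 10 in sum before rounding of each. All MC-21 libraries were low. By estimated depth MC-21 3 was the shallowest library and MC-21 2 deeper than 3 of the 4 PBS libraries, and the part of depth in the result was not tested. The adjusted p ranged from 0.0290 to 0.123 over the alternatives tried, and the call was lost when any library but PBS 6 was left out.

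The library profile of F13a1 was set beside those of other genes by the root mean square distance of log2(RPKM + 1) around each gene's own mean over the 7 libraries. Among genes averaging 5 RPKM or more, Ms4a6c was nearest (distance 0.227), and Ccdc109b was the third (0.245). Ms4a6c is a membrane protein of monocytes and macrophages and is also on the monocyte list. Its values were 9.52, 10.4, 11.6 and 7.94 RPKM in PBS and 2.86, 1.84 and 1.75 RPKM in MC-21. Ccdc109b had 6.59, 4.10, 12.3 and 6.32 RPKM in PBS and 2.34, 1.91 and 1.91 RPKM in MC-21. Genes named in this way, here and for the other members, share the pattern of the member because they were chosen by it.

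Factor XIII-A is known from platelets and from monocytes and macrophages, and their markers are given beside it. The monocyte list was lower in 9 of 10 tested genes, with a median difference of -1.39. Of these genes 3 passed the adjusted threshold, Ccr2, Ms4a6c and Fcgr1, all lower, against 0.625% of all tested genes. Its summed level ran the other way, 521, 812, 996 and 741 RPKM in PBS against 1445, 1152 and 1522 RPKM in MC-21 (exact permutation p = 0.0286), because Cd14, its most abundant gene, had 391 to 800 RPKM in PBS and 1071 to 1430 RPKM in MC-21. Cd14 was then left out, a choice made after seeing the values. The sums without it were 130, 141, 196 and 159 RPKM in PBS and 99.7, 81.4 and 91.4 RPKM in MC-21. Since Cd14 was the only tested gene of the list that was higher, leaving it out fixed the direction, and no test is given. Of the macrophage and Kupffer cell list, 8 of 9 tested genes were lower and 4 passed, C1qa, C1qb, C1qc and Trem2, with summed levels of 542, 630, 608 and 626 RPKM in PBS and 310, 330 and 249 RPKM in MC-21 (exact permutation p = 0.0286). Cd68, a lysosomal protein, was its most abundant gene by the mean over all 7 libraries, at 118 to 176 RPKM in PBS and 87.1 to 92.2 RPKM in MC-21. The study itself named Fcgr1 and C1q genes from these libraries, so their direction is not independent evidence. In a sorted bulk sample, fewer cells of a type and less RNA per cell cannot be told apart, and the part of these cells in the F13a1 result was not tested.

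Platelet markers did not move as a list. Of 6 tested genes 3 were lower and 3 higher, none passed, and their summed levels were 189, 208, 304 and 161 RPKM in PBS and 181, 229 and 137 RPKM in MC-21 (exact permutation p = 0.514). Pf4, platelet factor 4, nevertheless had 75.0, 116, 244 and 76.0 RPKM in PBS and 60.9, 44.9 and 36.7 RPKM in MC-21, a difference of -1.26 with an adjusted p of 0.194 by limma. It peaked in PBS 7, as F13a1 did. Clec1b, the most abundant platelet marker by the mean over all 7 libraries, though below Pf4 on average in PBS, had its lowest value there, 46.6 RPKM, and up to 165 RPKM in MC-21 3. Pf4 and Clec1b were named after their values were seen. The part of platelets in the F13a1 result was not tested.

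**Figure D3:**
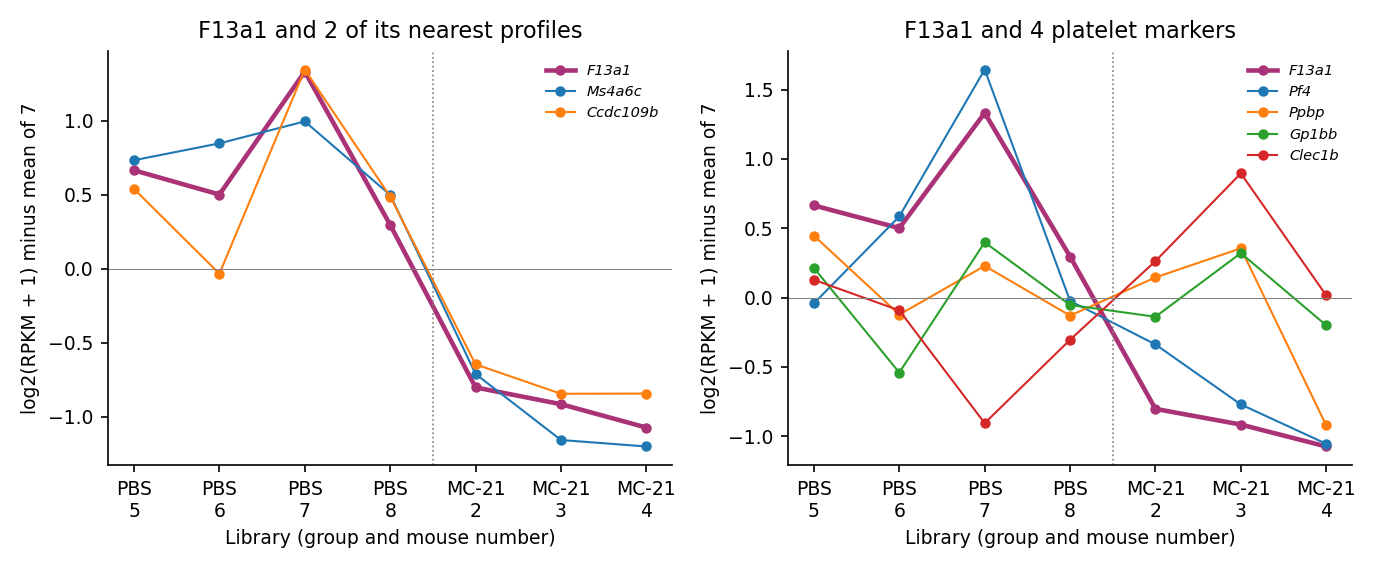
log2(RPKM + 1) minus its mean over the 7 libraries, by library, for F13a1 (thick purple line) with 2 of its nearest genes (left) and with 4 platelet markers (right); the dotted line parts PBS from MC-21. Ms4a6c and Ccdc109b drop below their means in all 3 MC-21 libraries with F13a1, whereas of the platelet markers Pf4 alone does.

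The factors that start clotting were next. F3, at chr3:121426455-121437970 on the plus strand (ENSMUSG00000028128.8), encodes tissue factor, the membrane receptor of factor VII. Its values were 1.35, 0.960, 4.21 and 5.92 RPKM in PBS and 2.69, 3.68 and 4.60 RPKM in MC-21. All MC-21 values lay inside the range of the PBS libraries, which differed among themselves by 6.16-fold. The difference was 0.35 (SE 0.43, adjusted p 0.738 by limma) on an estimated 6 to 44 reads per library. Ccnd3, Rabgef1 and Hsph1 had the nearest profiles, at distances of 0.290, 0.315 and 0.350. Like F3, Ccnd3, which encodes cyclin D3, was lowest in PBS 6, at 32.9 RPKM, and had its high PBS values in PBS 7 and 8, at 141 and 129 RPKM.

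F7 encodes factor VII, a vitamin K-dependent serine protease made mainly by hepatocytes, and lies at chr8:13026034-13035809 on the plus strand (ENSMUSG00000031443.6). PBS libraries had 2.34, 5.67, 4.26 and 4.63 RPKM, and MC-21 libraries 5.13, 1.69 and 6.78 RPKM. Both the highest and the lowest value were thus MC-21 libraries. Its difference was -0.01 with a 95% interval of -0.85 to 0.84 on the log2 scale (adjusted p 0.995 by limma). The MC-21 3 value rests on an estimated 5 reads. Pla2g15, a lysosomal phospholipase (distance 0.223), 1600014C10Rik (0.256) and Tmub1 (0.260) were its nearest genes.

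F10 encodes factor X, the protease at which the 2 routes of clotting meet, and starts 1498 bases downstream of the end of F7, at chr8:13037308-13056676 on the plus strand (ENSMUSG00000031444.9). Its values were 6.45, 41.7, 19.0 and 25.6 RPKM in PBS and 57.4, 36.6 and 46.3 RPKM in MC-21. The groups overlapped by a single pair, PBS 6 above MC-21 3. Means were 23.2 ± 14.7 RPKM in PBS (SD, n = 4) and 46.8 ± 10.4 RPKM in MC-21 (SD, n = 3), a ratio of 2.02. The log2 difference was 1.21 (SE 0.49, 95% interval 0.11 to 2.31), with an unadjusted p of 0.0339 and an adjusted p of 0.306 by limma, and the exact permutation p was 0.114. The difference therefore did not pass the adjustment, although F10 rested on many more reads than F13a1, an estimated 45 to 513 per library. It was higher in MC-21 under all 13 alternatives tried, between 0.73 without PBS 5 and 1.57 without PBS 6.

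Although F7 and F10 lie next to each other, their values parted: MC-21 3 had the lowest F7 value and a F10 value above 3 of the 4 PBS libraries. The nearest profiles to F10 were those of 1810011H11Rik (distance 0.265), Selp (0.271) and Fam20c (0.318). Selp encodes P-selectin, an adhesion receptor of platelets and endothelial cells, and had 3.37, 21.9, 11.8 and 10.1 RPKM in PBS and 29.3, 21.9 and 37.2 RPKM in MC-21. As with F10, PBS 5 was lowest.

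Hepatocytes make these soluble factors, and their markers are therefore given beside them. The 12 hepatocyte markers summed to 441, 719, 388 and 513 RPKM in PBS and 461, 560 and 362 RPKM in MC-21 (exact permutation p = 0.629), and of 11 tested genes 8 were lower, 3 were higher and 0 passed. After median-centring, 5 were lower and 6 higher. The most abundant was Apoa1, with 46.4 to 126 RPKM. The hepatocyte sum was highest in PBS 6, where F7 and F10 had the highest values of their PBS libraries. In MC-21 3, however, F7 was lowest while the hepatocyte sum was the highest of the MC-21 libraries. The part of hepatocyte RNA in the levels of F7 and F10 was not tested.

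Of the other clotting factors and cofactors, 12 of 16 listed in the table were tested and 0 passed the adjusted threshold, 6 being lower and 6 higher, with a median difference of 0.01. After median-centring, 3 were lower and 9 higher, with a median of 0.17. Fgb, which encodes the beta chain of fibrinogen, was the most abundant at 21.2, 90.3, 34.8 and 60.3 RPKM in PBS and 66.5, 63.4 and 45.8 RPKM in MC-21 (difference 0.36, adjusted p 0.729 by limma). It peaked in PBS 6, as the hepatocyte sum did. Vkorc1, the reductase that recycles vitamin K, had means of 31.6 ± 7.50 RPKM in PBS (SD, n = 4) and 32.7 ± 7.34 RPKM in MC-21 (SD, n = 3), a difference of 0.06. Vwf, von Willebrand factor, the endothelial and platelet protein that carries factor VIII, was picked after its values were seen. It had 1.19, 3.54, 4.98 and 3.17 RPKM in PBS and 10.5, 3.84 and 13.8 RPKM in MC-21, a difference of 1.24 with an adjusted p of 0.244 by limma. F12, factor XII, also picked after its values were seen, went the other way. Its means were 4.17 RPKM in PBS and 2.21 RPKM in MC-21, a difference of -0.66 with an adjusted p of 0.261 by limma.

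The MC-21 3 value of Vwf lay within the PBS range and the other two above it. Like F10 and Selp, Vwf was lowest in PBS 5. The endothelial marker list had 9 of 12 genes lower and 3 higher, with a median of -0.37, and its sums were 3743, 2506, 1948 and 3326 RPKM in PBS and 2107, 3151 and 1980 RPKM in MC-21 (exact permutation p = 0.457). Of its 12 genes 0 passed. Clec4g, a lectin of sinusoidal endothelial cells, was the most abundant of that list, at 474 to 1539 RPKM, and PBS 5 had one of its higher values, 1509 RPKM.

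Procr encodes the endothelial protein C receptor, which presents protein C for activation by thrombin and so helps to restrain clotting. It lies at chr2:155576853-155581207 on the plus strand (ENSMUSG00000027611.6). PBS libraries had 50.5, 15.0, 37.5 and 14.8 RPKM and MC-21 libraries 13.03, 12.1 and 9.56 RPKM. The PBS libraries fell into a high pair, 5 and 7, and a low pair, 6 and 8, and the low pair was only just above MC-21 2. Means were 29.4 ± 17.6 RPKM (SD, n = 4) against 11.6 ± 1.80 RPKM (SD, n = 3), with a log2 difference of -1.09 (SE 0.41, 95% interval -2.01 to -0.17). The unadjusted p was 0.0245 and the adjusted p 0.274 by limma. Although the groups did not overlap, the exact permutation p of the difference in means was 0.143. Procr remained lower in MC-21 under all 13 alternatives, between -0.77 and -1.34, and passed the adjusted threshold under none.

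Ear2 was the gene with the profile nearest to Procr (distance 0.369), followed by Gpx7 (0.389) and Nudt8 (0.403). Ear2, an eosinophil-associated ribonuclease, had 66.2, 48.6, 85.5 and 27.8 RPKM in PBS and 22.6, 29.8 and 18.6 RPKM in MC-21. It is the most abundant gene of the eosinophil list, whose sums were 79.1, 69.8, 103 and 41.2 RPKM in PBS and 39.0, 43.5 and 27.9 RPKM in MC-21 (exact permutation p = 0.0857), with 3 of 3 tested genes lower and 0 past the adjusted threshold. Without Ear2, a choice made after seeing the values, the sums were 12.9, 21.2, 17.4 and 13.4 RPKM in PBS and 16.4, 13.7 and 9.33 RPKM in MC-21, which overlap and are lowest among PBS libraries in PBS 5. The part of eosinophils in the Procr values was not tested. The endothelial sum, given above, was highest in PBS 5 but lowest in PBS 7, the 2 libraries with the most Procr. Clec4g weighs on that sum, with 474 RPKM in PBS 7 against 1155 to 1509 RPKM in the other PBS libraries. Single genes of the list differed. Lyve1 had 261, 90.4, 172 and 82.2 RPKM in PBS, highest in PBS 5 and 7, whereas Kdr and Stab2 were lowest of PBS in PBS 7. The part of endothelial cells in the Procr values was not tested.

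Among the other anticoagulants and the thrombin receptors, 11 of 14 in the table were tested and 0 passed the adjusted threshold, with 7 lower, 4 higher and a median of -0.12. After median-centring, 5 were lower and 6 higher, with a median of 0.04. Anxa5, annexin A5, which covers the exposed phosphatidylserine on which clotting factors assemble, had 159, 202, 178 and 168 RPKM in PBS and 154, 142 and 105 RPKM in MC-21. The groups did not overlap, the difference being -0.41 (adjusted p 0.302 by limma). F2rl3, the thrombin receptor PAR4, did not overlap either, with 3.62, 1.81, 1.88 and 2.91 RPKM in PBS and 1.68, 1.57 and 0.540 RPKM in MC-21 (difference -0.66, adjusted p 0.324). The thrombin receptor F2r, PAR1, spread widely in both groups, from 20.7 to 80.7 RPKM in PBS and from 10.3 to 82.1 RPKM in MC-21.

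Plaur encodes the urokinase receptor, a membrane-anchored protein of leukocytes that focuses plasmin formation on the cell surface. It lies at chr7:25247519-25260892 on the plus strand (ENSMUSG00000046223.9). PBS libraries had 235, 233, 325 and 244 RPKM and MC-21 libraries 378, 266 and 363 RPKM. PBS 7 stood apart from the other PBS libraries and was above MC-21 3. The difference was 0.37 (SE 0.18, 95% interval -0.02 to 0.76, adjusted p 0.368 by limma), a ratio of means of 1.30. With an estimated 591 to 1888 reads per library, Plaur was the best-measured member. Its nearest genes were Nfe2 (distance 0.119), Osm (0.125) and Lilrb4a (0.128), of which Osm encodes the cytokine oncostatin M and Lilrb4a an inhibitory receptor of myeloid cells. Osm had 427, 419, 533 and 389 RPKM in PBS and 612, 390 and 513 RPKM in MC-21. Among the 8 tested members these distances were the smallest, and the profile of Plaur was also the flattest.

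Plau encodes urokinase, the protease that activates plasminogen, and lies at chr14:21655884-21662610 on the plus strand (ENSMUSG00000021822.2). PBS values were 6.17, 8.84, 4.97 and 3.12 RPKM and MC-21 values 4.42, 7.51 and 4.60 RPKM. All MC-21 values lay within the PBS range. The difference was -0.02 (SE 0.30, 95% interval -0.70 to 0.66, adjusted p 0.982 by limma). Malsu1 (distance 0.143), Rpp21 (0.147) and Rgs2 (0.165) were nearest. The receptor was thus measured at a mean of 292 RPKM and its ligand at 5.66 RPKM in the same libraries.

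Serpinb2, which encodes the urokinase inhibitor PAI-2, lies at chr1:109408000-109432055 on the plus strand (ENSMUSG00000062345.4). It was near the limit of detection, with 0.177 and 0.733 RPKM in PBS 5 and 6, listed values of 0 in PBS 7 and 8, and 0.137, 0.307 and 0.176 RPKM in MC-21. These are an estimated 1, 5, 0 and 0 reads in PBS and 1 read in each MC-21 library. A difference was not detectable at this depth (exact permutation p = 0.971).

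Of the other genes of fibrinolysis, 11 of 15 in the table were tested, and all 11 were lower in MC-21, against 69.4% of all tested genes. Their median was -0.35, against -0.15 for all tested genes. After median-centring, 10 of 11 were lower, against 4539 of 9594 for all tested genes. Of these 11, 1 passed the adjusted threshold, against 0.625% of all tested genes. This was Lrp1, the endocytic receptor that clears complexes of urokinase with its inhibitors. It had 5.05, 6.90, 11.4 and 6.78 RPKM in PBS and 1.35, 2.19 and 2.08 RPKM in MC-21, a difference of -1.53 (SE 0.26, adjusted p 0.0412 by limma), with no overlap between the groups. Lrp1 is also a receptor of macrophages and was shown by the study from these libraries, so it is not independent evidence. The macrophage markers given above moved with it, and their part was not tested. The call was lost in 9 of 13 alternatives: with no filter on low values, with quantile normalization, with centring of the libraries on their medians, and when any library but PBS 5 was left out.

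Anxa2 and S100a10 form a complex that holds plasminogen and its activator on cells, and both were abundant. S100a10 had 448, 284, 270 and 355 RPKM in PBS and 219, 257 and 235 RPKM in MC-21, without overlap (difference -0.49, adjusted p 0.274 by limma). Anxa2 had 587, 677, 831 and 633 RPKM in PBS and 679, 504 and 540 RPKM in MC-21, with overlap (difference -0.25, adjusted p 0.511 by limma). Neither difference passed the adjustment.

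Thbs1 encodes thrombospondin 1 and lies at chr2:117937612-117952869 on the plus strand (ENSMUSG00000040152.8). PBS values were 2.35, 10.9, 8.49 and 9.28 RPKM and MC-21 values 16.8, 7.95 and 3.44 RPKM. PBS 5 was low against the other PBS libraries, and the MC-21 libraries differed among themselves by more than the groups did. Means were 7.76 ± 3.75 RPKM (SD, n = 4) and 9.40 ± 6.80 RPKM (SD, n = 3). The difference was 0.17 (SE 0.53, 95% interval -1.01 to 1.36, adjusted p 0.904 by limma), so these libraries cannot tell a change of up to 2-fold in either direction from none. Thbs1 had an estimated 38 to 351 reads per library. The sign turned with single libraries, being -0.24 without PBS 5 and -0.33 without MC-21 2.

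The nearest profiles to Thbs1 were those of Baz2b (distance 0.296) and, as the third, Rybp (0.353), a Polycomb-associated protein. Baz2b had 2.54, 8.80, 6.41 and 4.27 RPKM in PBS and 11.4, 5.59 and 2.84 RPKM in MC-21. It shared with Thbs1 the highest value in MC-21 2 and the lowest in PBS 5. The platelet sum was lowest in MC-21 4 at 137 RPKM, where Thbs1 was also low at 3.44 RPKM. It was highest in PBS 7 at 304 RPKM, where Pf4 had 244 RPKM. The part of platelets in the Thbs1 values was not tested.

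**Figure D4:**
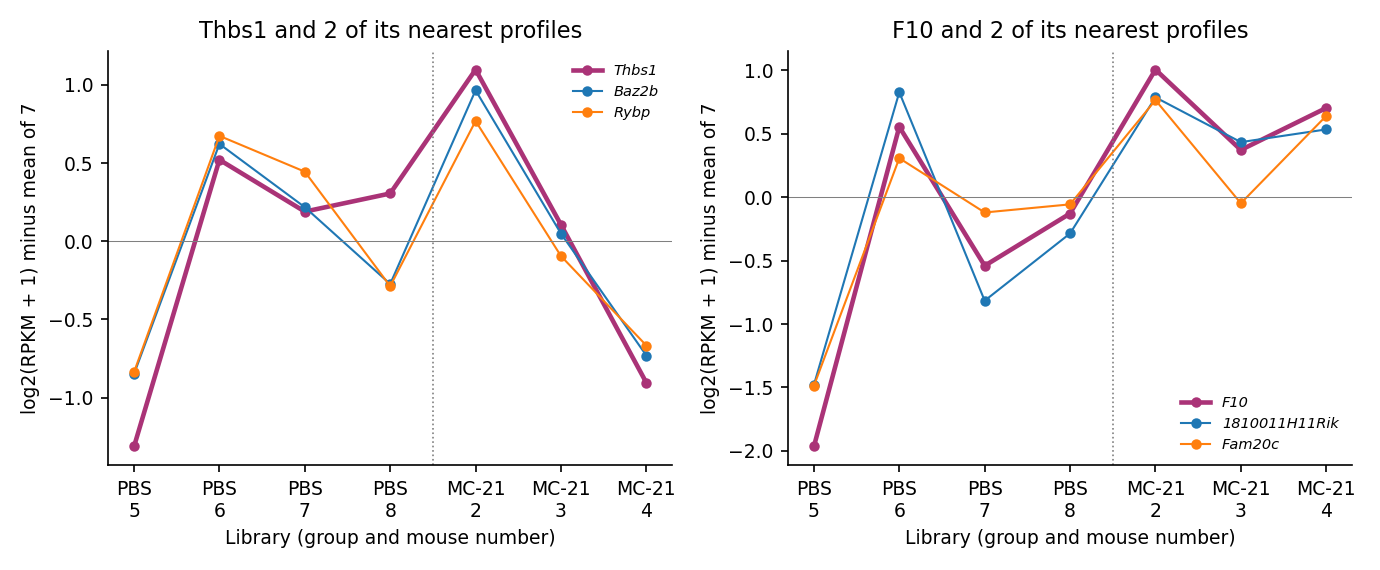
log2(RPKM + 1) minus its mean over the 7 libraries, by library, for Thbs1 (left) and F10 (right), each as a thick purple line with 2 of its nearest genes; the dotted line parts PBS from MC-21. Thbs1 and its nearest genes vary within both groups, with PBS 5 and MC-21 4 low, while F10 and its nearest genes are lowest in PBS 5 and lie near or above their means in MC-21.

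In the thrombospondin family and its receptors, 9 of 14 genes were tested and 0 passed the adjusted threshold, with 4 lower, 5 higher and a median of 0.13. After median-centring, 1 was lower and 8 higher, with a median of 0.29. The remaining members of the family, Thbs2, Thbs3, Thbs4 and Comp, were below 1 RPKM on average. Cd47, the receptor that binds the C-terminal end of thrombospondin 1 and also marks cells against phagocytosis, had 71.2, 89.4, 77.6 and 54.2 RPKM in PBS and 155, 97.5 and 98.6 RPKM in MC-21. Every MC-21 value was above every PBS value, with a difference of 0.66 (SE 0.22, adjusted p 0.235 by limma), which did not pass. Calr, calreticulin, which acts with Lrp1 as a receptor complex for thrombospondin 1, had means of 351 ± 85.5 RPKM (SD, n = 4) and 325 ± 75.4 RPKM (SD, n = 3), a difference of -0.10.

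Over the 4 pathway lists together, 1 of 43 tested genes, Lrp1, passed the adjusted threshold, next to 1 of 8 members. Of all tested genes, 60 of 9594 passed (0.625%). The marker lists not yet given were those of stellate cells and fibroblasts, lymphocytes, dendritic cells and erythroid cells, in which 0 of 4, 0 of 7, 0 of 3 and 0 of 6 tested genes passed. Their summed levels were 24.8 and 22.5 RPKM, 29.7 and 20.7 RPKM, 25.1 and 23.3 RPKM, and 877 and 1053 RPKM in PBS and MC-21, with Ecm1, Cd79b, Itgax and Hbb-bs highest by the mean over all 7 libraries. The neutrophil list likewise had 0 of 12 past the threshold, with 23645 ± 5613 RPKM in PBS (SD, n = 4) and 34487 ± 6737 RPKM in MC-21 (SD, n = 3, exact permutation p = 0.114).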

How the data were processed

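RNA of sorted liver neutrophils was made into 3′ RNA-seq libraries by the authors, 1 per liver. Per the methods and the submitters' processing notes, reads were mapped to mm9 with HISAT 0.1.5 and quantified in Partek Genomics Suite 6.6, and the authors deposited RPKM values per gene symbol. Read totals are not in the table. Depth was estimated from the steps between low values, which gave 1.59 (MC-21 3) to 3.96 (PBS 8) reads per RPKM and kilobase. Since 77.8% of the 3071 low values came out whole to 0.1 read, read numbers are estimates, made with the longest GENCODE vM1 transcript. No count test was run.

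The filter (a mean of 1 RPKM or more over all libraries) left 9594 of 16047 genes, tested as log2(RPKM + 1) with limma 3.58.1 (R 4.3.3; eBayes with a trend) and Benjamini-Hochberg adjustment, threshold 0.05. The fit was tested on simulated data. Exact permutation tests were two-sided. Members and lists were chosen with earlier results of these data known. Pathway genes were named if past the adjusted threshold, if without overlap at an unadjusted p under 0.05, or if among the 2 most abundant of a list, marker genes if most abundant or at 0, and for each member the 3 nearest profiles; a few genes that these rules name are not reported here. Alternatives were a pseudocount of 0.1, no filter, a filter at 5 RPKM, quantile normalization, median-centring, no trend, and leaving out each library.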

Additional observations from a re-analysis of the deposited data

Results flagged for a closer look

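Plaur in PBS 7 lay far from the other PBS libraries. Its value there was 325 RPKM against 233 to 244 RPKM in the others, and the gap to the next library was 0.885 of the range of the group, above the 95% limit of Dixon's test for 4 samples. The PBS libraries were looked at in this way for 20 items, the 9 members and 11 marker sums, and Plaur alone passed. Chance flags about 1 in 20 groups, so 1 flag is what chance gives.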

How the results depend on the processing

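No paired analysis was possible because the groups share no replicate numbers. The count of called genes went from 60 to 6 with no filter on low values, and to between 9 and 102 when 1 library was left out, lowest without PBS 8 and highest without PBS 6. Of the 60, 41 were lower and 19 higher; quantile normalization gave 29 and 26, and centring on library medians 30 and 44. Members called by adjusted p went from 1 to 0 with no filter, with a mean of at least 5 RPKM (which leaves F13a1 untested) and with quantile normalization, and to between 0 and 1 when a library was left out. The F13a1 adjusted p was 0.123 with no filter and 0.0650 with quantile normalization, and 0.0445 to 0.123 without single libraries. Members past the unadjusted p and 2-fold numbered 3, and 1 to 3 when a library was left out, being 1 without PBS 5, PBS 7 or MC-21 4. They numbered 2 with no filter, where F10 was lost, with a mean of at least 5 RPKM, where F13a1 was untested, and with quantile normalization or centring, where Procr, at -0.95 and -0.93, was under 2-fold. Pathway genes called went from 1 to 0 with no filter, quantile normalization and centring, and to between 0 and 1 without single libraries, Lrp1 being kept only without PBS 5. With quantile normalization the differences of F7 and Plau, near 0, turned to 0.17 and 0.14, and with centring to 0.16 and 0.14. Without single libraries Thbs1 ranged from -0.33 to 0.68, F7 from -0.32 to 0.45 and Plau from -0.24 to 0.18. F3, F10, F13a1, Plaur and Procr kept their direction wherever they were tested. The causes of these changes were not tested. F13a1 in MC-21 and Serpinb2 throughout rest on 6 or fewer reads per library, which limits both, and an exact permutation p over 7 libraries cannot fall below 0.0286.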
